A study of Mus musculus with 12 samples.

Results

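Cadherins and protocadherins were examined in the frontal cortex of male C57BL/6 mice that lacked the RNA editing enzyme ADAR2 and in their litter mates. The genes were those of the gene table whose symbol is Cdh followed by digits only or begins with Pcdh, 53 of 15191 listed genes, with 391 of 156805 listed exon bins. They comprised 19 Cdh genes, 11 protocadherins outside the clusters, 21 Pcdhb genes, 1 row for the Pcdha cluster (Pcdha1) and 1 row for the Pcdhg cluster (Pcdhga11). The annotation holds 92 symbols of this form, and the other 39 were not analysed here. The family was selected on the p-value of Cdh13, the third smallest of the gene table, so the gene-level values are a description and no test was built on them.

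The study compared 6 Adar2-/- Gria2R/R cortices with 6 Adar2+/+ Gria2R/R cortices. ADAR2, the product of Adarb1, converts adenosine to inosine in RNA duplexes. Mice of either group had the Gria2R allele, which supplies in DNA the arginine that ADAR2 otherwise introduces into this AMPA receptor subunit, so the controls are not unmodified mice. Only the authors' group comparisons were at hand, with no value per library. The depth of the libraries and the spread between mice are therefore unknown here beyond what the authors' p-values took up. Conditions in the gene table are headed A and B without a genotype, and expression levels were not used to name them, also not that of the targeted gene Adarb1, which the authors' deposited table lists at a log2 difference of -2.21 for A over B. Gene differences are therefore given as A over B, whereas the exon and editing tables name control and knockout themselves.

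Cadherins are calcium-dependent adhesion proteins whose extracellular domains bind those of neighbouring cells. Classical cadherins have a cytoplasmic tail that binds catenins and through them actin, and in cortex they take part in the matching of neurons to targets and in synapse adhesion. Cdh13 encodes T-cadherin, which has cadherin domains but no cytoplasmic tail and is held in the membrane by a lipid anchor. Protocadherins are the largest branch of the family. The Pcdha and Pcdhg clusters join many variable first exons to shared last exons, the Pcdhb genes are mostly single-exon genes without shared exons, and neurons express different combinations of them. The tissue label was set beside markers: all 9 markers of cortical excitatory neurons were listed, among them Slc17a7 with a mean normalized read count of 17440 over both conditions in the authors' deposited table. Being listed cannot tell cortex from a wider dissection, since all 3 olfactory bulb markers were listed too.

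At the level of whole genes, Cdh13 was the only member called. The authors' deposited table gave it a mean normalized read count of 1696 over both conditions and a 1.38-fold higher level in A (log2 difference 0.47, p = 3.71e-06, adjusted p = 0.0156). With Bonferroni adjustment over the listed genes its p was 0.0564, and 0 members were called. Of the 53 members 1 passed an adjusted p under 0.05, where 0.0197% of all listed genes did, and this call is the one that the family was selected for. At an unadjusted p under 0.05 the count was also 1 of 53, beside 1.86% of all listed genes. The member next to Cdh13 by p was Cdh9, for which the authors' deposited table gave p = 0.0502. Just behind Cdh13 among all genes came Gm14740, for which the authors' deposited table gave a log2 difference of -0.98 with an adjusted p of 0.0596.

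Across the family the differences were small and went both ways. The median log2 difference of A over B was 0.015 over the 53 members and 0.0063 over all listed genes. Of the members 28 were higher in A (52.8%), beside 52.9% of all listed genes. A difference of less than 1.2-fold was found for 48 of the 53 members (90.6%), beside 91.6% of all listed genes. The 5 members beyond 1.2-fold were Cdh13, Cdh15, Cdh9 and Pcdh1, higher in A, and Pcdhb4, lower in A. Apart from Cdh13 none of them passed an adjusted p under 0.05.

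**Figure D1:**
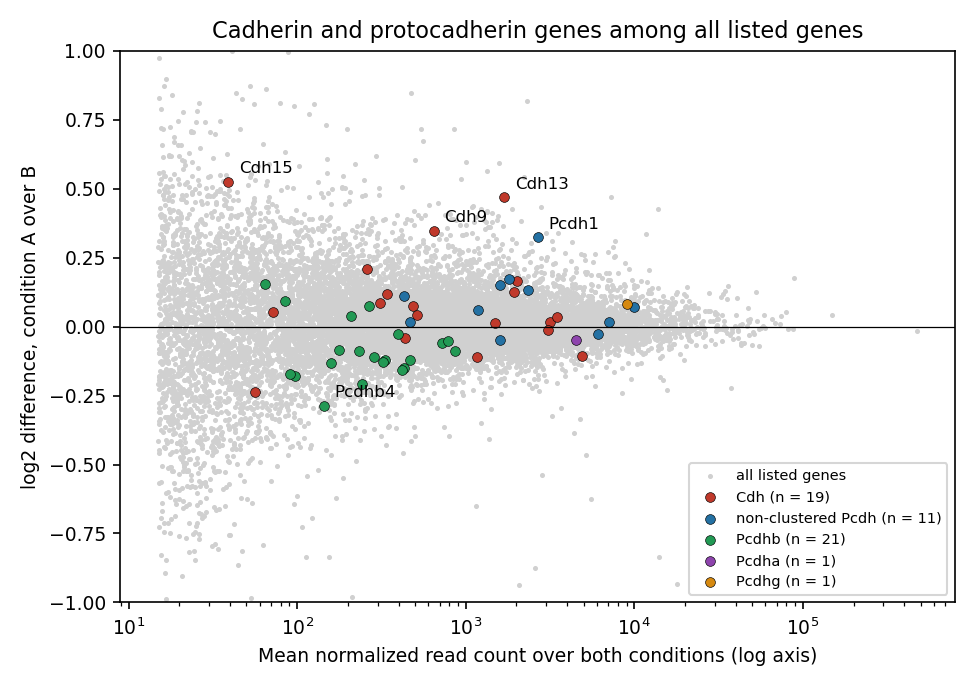
Each point is a gene, with its mean normalized read count over both conditions on a log axis and its log2 difference of condition A over B on the vertical axis; grey points are all listed genes, 33 of which lie outside the plotted range. Cdh13 lies at 0.47 among genes of similar count that mostly lie near 0, and most Pcdhb points lie below 0.

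Among the classical cadherins of type I, the subfamily described first, all 4 listed genes were higher in A without passing the test. For Cdh2, N-cadherin of neural tissue and synapses, the authors' deposited table gave a mean count of 3475 and a log2 difference of 0.036 (p = 0.811). For Cdh4, R-cadherin, the authors' deposited table gave a mean count of 515 and a log2 difference of 0.042 (p = 0.898). Both of these neural cadherins differed by less than 1.2-fold. Cdh1, the E-cadherin of epithelia, stood in the authors' deposited table at a mean count of 260 and a log2 difference of 0.21 (p = 0.488). Cdh15, the M-cadherin of muscle, had the largest log2 difference of the Cdh genes, 0.53, on a mean count of only 39.1 in the authors' deposited table (p = 0.0958).

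The 13 listed type II cadherins had a median log2 difference of 0.055, with 9 higher in A and 4 lower. Cdh9, which guides synapse formation in hippocampal circuits, had a mean count of 645 in the authors' deposited table and a log2 difference of 0.35, a 1.27-fold higher level in A (p = 0.0502, adjusted p = 1). For Cdh7 the authors' deposited table gave a mean count of 2026 (0.17, p = 0.054), and for Cdh12 one of 1948 (0.12, p = 0.156). These were the type II genes with the smallest p-values, and all were higher in A. On the other side stood Cdh11, first described in bone-forming cells, with a mean count of 4893 in the authors' deposited table (-0.10, p = 0.257). Cdh22, a cadherin of brain and pituitary, had a mean count of 1164 in the authors' deposited table (-0.11, p = 0.417).

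The p-values of the other type II genes were larger. Small positive log2 differences were listed in the authors' deposited table for Cdh5, the VE-cadherin of endothelial junctions (0.12), Cdh6 (0.086), Cdh20 (0.073), Cdh24 (0.055), Cdh10 (0.018) and Cdh18 (0.012). Small negative ones were listed in the authors' deposited table for Cdh8 (-0.014) and Cdh19 (-0.042), and the p-values of these 8 genes ran from 0.582 for Cdh20 to 0.929 for Cdh8. Cdh8 and Cdh10, with mean counts of 3091 and 3146 in the authors' deposited table, were thus among the most strongly counted Cdh genes and among those with the smallest differences. Cdh23, a long atypical cadherin that forms the tip links of hair cells with Pcdh15, had a mean count of 56.1 in the authors' deposited table (-0.24, p = 0.498).

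Without Cdh13, the remaining 18 Cdh genes had a median log2 difference of 0.048, with 13 higher in A and 5 lower, and 16 of them lay within 1.2-fold. Chromosome 8 carries 6 of the listed Cdh genes, and they did not go the same way: Cdh13, Cdh15, Cdh1 and Cdh5 were higher in A, and Cdh11 and Cdh8 were lower. On chromosome 15 all 5 Cdh genes (Cdh9, Cdh12, Cdh6, Cdh10 and Cdh18) were higher in A, by log2 differences from 0.012 to 0.35, and none passed the test.

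Levels were compared between genes per kilobase of annotated exon. That length takes in every annotated exon of a gene, whether or not it is used in cortex, so the order also depends on the annotation. On the scale of mean normalized count per kilobase over both conditions, Cdh13 stood at 151, in position 10 of the 19 Cdh genes. Cdh11 (550), Cdh2 (431) and Cdh8 (399) stood highest on this scale, and Cdh15 and Cdh23 (3.31) lowest. Cdh9 (182 per kilobase) and Cdh20 (122 per kilobase) were the neighbours of Cdh13 in this order. Whether neighbouring levels differ beyond the spread between mice could not be tested, since no value per library was at hand.

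**Figure D2:**
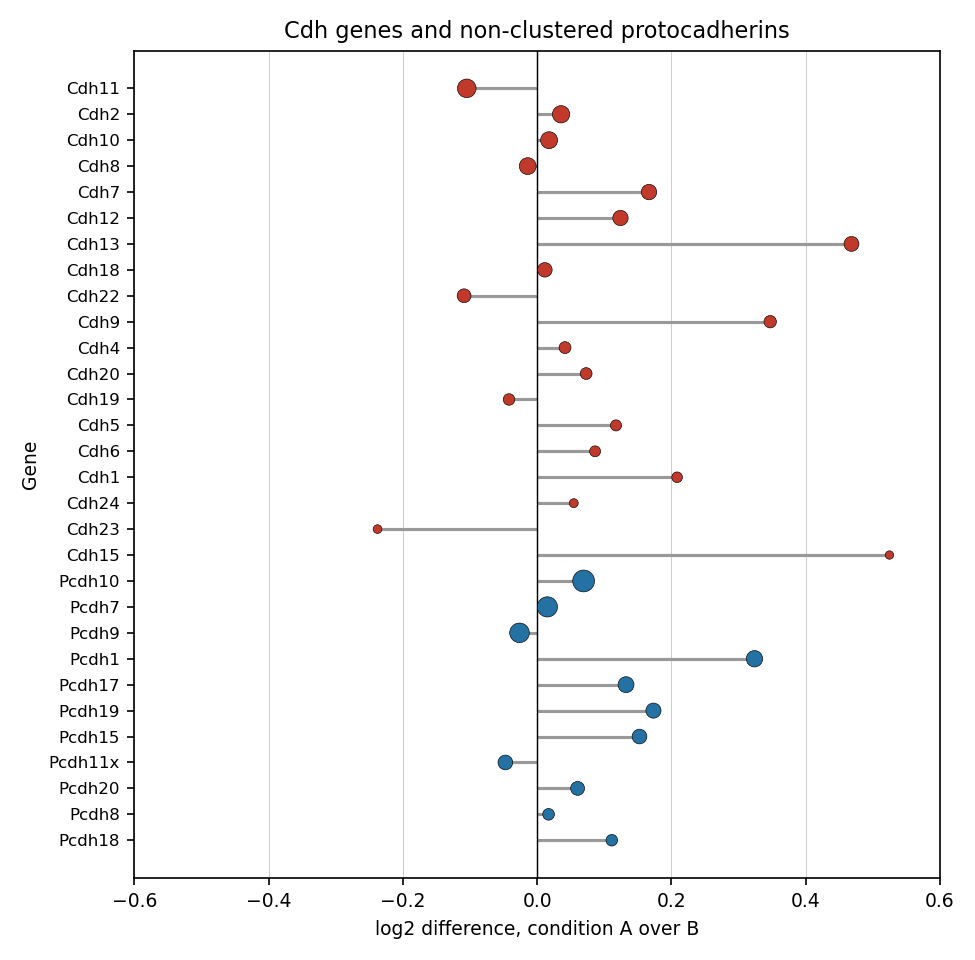
log2 difference of condition A over B for the 19 Cdh genes (red) and the 11 non-clustered protocadherins (blue), each set ordered by mean count from the highest at the top; lines run from 0 and point area grows with the mean count, and no error bars are drawn because the table holds no values per library. The longest lines are those of Cdh15 (0.53), Cdh13 (0.47), Cdh9 (0.35) and Pcdh1 (0.32).

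The non-clustered protocadherins were mostly a little higher in A. Their median log2 difference was 0.069, with 9 of 11 higher in A, and 0 passed at an adjusted p or an unadjusted p under 0.05. The delta-2 protocadherins, among which Pcdh10, Pcdh17 and Pcdh19 bind the WAVE actin regulatory complex, were all 5 higher in A. Pcdh19, an X-linked gene in which human mutations cause epilepsy, stood in the authors' deposited table at a mean count of 1808 (log2 difference 0.17, p = 0.206). Pcdh17 was listed in the authors' deposited table at a mean count of 2352 (0.13, p = 0.24) and Pcdh18 at 430.3 (0.11, p = 0.671). Pcdh10 had the highest count of the 11, with a mean of 9904 in the authors' deposited table (0.069, p = 0.501). Pcdh8, known as arcadlin and induced by neuronal activity, differed little, with a mean count of 464 in the authors' deposited table (0.017, p = 0.793).

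The delta-1 protocadherins were split. Pcdh1 had a mean count of 2672 in the authors' deposited table, with a log2 difference of 0.32 (p = 0.222). That difference was larger than those of Cdh7 and Cdh12, yet it came with a larger p. Pcdh7 was listed in the authors' deposited table at a mean count of 7039.6 (0.015, p = 0.993) and Pcdh9 at 6136 (-0.026, p = 0.691). Pcdh11x, on the X chromosome, had a mean count of 1591 in the authors' deposited table (-0.047, p = 0.569). These 3 well-counted genes differed by less than 1.2-fold. Of the remaining members, Pcdh15, the tip-link partner of Cdh23, had a mean count of 1591 in the authors' deposited table (0.15, p = 0.505), and Pcdh20 had one of 1180.3 (0.060, p = 0.896).

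The Pcdhb genes leaned the other way. Of the 21 listed, 17 were lower in A (81.0%), beside 47.1% of all listed genes, with a median log2 difference of -0.11 and a range from -0.29 to 0.16. None passed at an adjusted or an unadjusted p under 0.05. Over the 6482 listed genes in the same range of mean counts, from 64.7 to 863, the median log2 difference was 0.011. The 21 genes lie in a row on chromosome 18 and resemble each other in sequence. Whether the authors' counting split or dropped reads among them was not tested. The 21 values come from the same libraries and cannot be taken as independent.

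By p, the leading Pcdhb genes were Pcdhb7, Pcdhb4 and Pcdhb9. Pcdhb7 had a mean count of 242 in the authors' deposited table (log2 difference -0.21, p = 0.0602). Pcdhb4 was listed in the authors' deposited table at a mean count of 144 (-0.29, p = 0.113) and Pcdhb9 at 432 (-0.15, p = 0.138). All of these were lower in A. The highest mean counts in the authors' deposited table were those of Pcdhb17 (863), Pcdhb19 (783) and Pcdhb16 (725). Their log2 differences were also negative, at -0.090, -0.051 and -0.061, and the authors' deposited table gave them p-values from 0.345 to 0.477. The 4 Pcdhb genes higher in A were listed in the authors' deposited table at 0.16 (Pcdhb2), 0.094 (Pcdhb6), 0.074 (Pcdhb11) and 0.037 (Pcdhb10), with p from 0.829 to 0.984. Of the 17 Pcdhb genes with a mean count of at least 100, 15 were lower in A, and of the 4 under 100, 2 were lower.

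**Figure D3:**
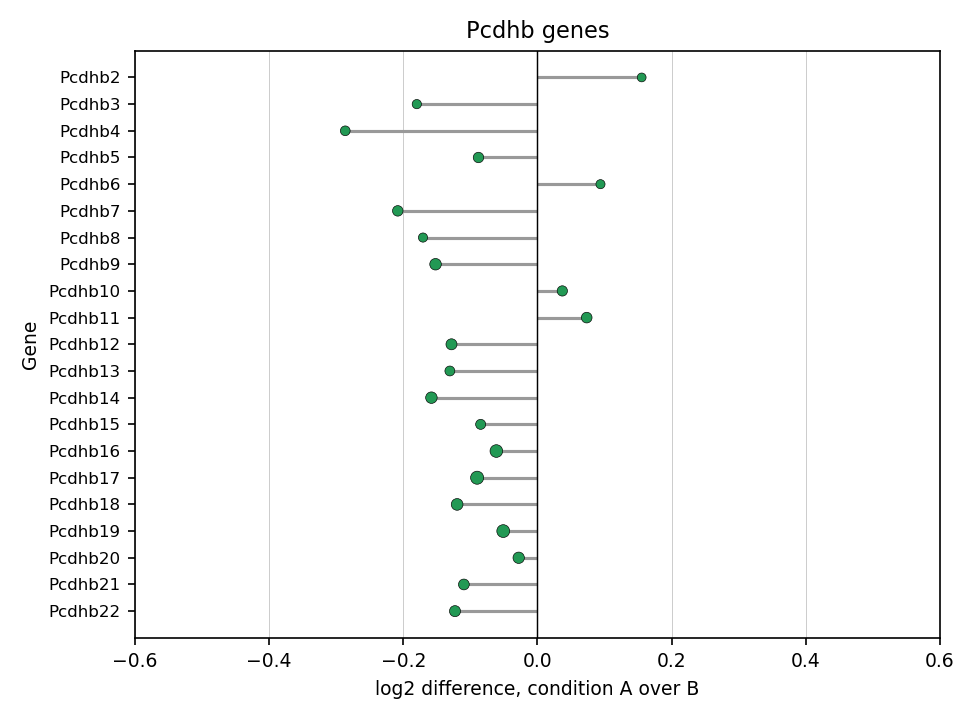
log2 difference of condition A over B for each of the 21 Pcdhb genes, ordered by gene number; lines run from 0 and point area grows with the mean count, and no error bars are drawn because the table holds no values per library. The point lies to the left of 0 in 17 genes and to the right in Pcdhb2, Pcdhb6, Pcdhb10 and Pcdhb11.

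The Pcdha and Pcdhg clusters, also on chromosome 18, were each represented by 1 row. Pcdha1 had a mean count of 4500.1 in the authors' deposited table (log2 difference -0.049, p = 0.517). Pcdhga11 had a mean count of 9110.3 in the authors' deposited table (0.083, p = 0.684). Thus Pcdha1 was on the side of most Pcdhb genes and Pcdhga11 on the other, and neither passed the test. Since isoforms of a cluster share their last exons, how reads were assigned to a single row is unknown, and levels of separate isoforms were not analysed here.

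Exon bins were then compared, where the authors' values describe the use of a bin within its gene. Of the 391 member bins, in 51 gene groups, 334 had a p-value. The 57 without a p-value were the bins of 16 Pcdhb genes with a single bin each and the 41 bins of Pcdh15, which the table combines with another gene ID. The 12 bins of Cdh4 are also combined with another gene ID but had p-values. Of the 334 bins, 0 passed the authors' adjusted p under 0.05, beside 0.00738% of all bins with a p-value. An unadjusted p under 0.05 was found for 8 of the 334 (2.40%), beside 1.67% of all bins. The change in usage was under 1.2-fold in 315 member bins (94.3%), beside 94.8% of all bins.

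Cdh13 was the member called at the level of the whole gene, a level that values of bin usage do not measure. Its 15 bins all lay within 1.2-fold between knockout and control. Their log2 changes of knockout over control in the authors' deposited table ran from -0.24 for E027 to 0.16 for E017. By p, the authors' deposited table placed E027 first (0.0233), then E017 (0.117) and E013 (0.149, log2 change 0.16), each with an adjusted p of 1. The signs were not spread evenly along the bin numbers. All 7 bins from E005 to E019 were higher in the knockout, by 0.016 to 0.16, and 7 of the 8 bins from E020 to E030 were lower, E029 at 0.034 being the exception. This split of the bins was chosen after the values were seen, and usage values within a gene balance each other, so that some must be positive where others are negative.

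As a description, the rank correlation of bin number with log2 change was -0.70 over the 15 bins of Cdh13, which share libraries and gene. Over all 6122 genes with at least 10 such bins, 5.55% had a correlation at least as far from 0, with a median size of 0.27. Of the 19 gene groups of the family with at least 10 bins, Pcdh19 had the correlation farthest from 0 (-0.83 over 10 bins), ahead of Cdh13. Cdh7 came next (-0.53 over 32 bins), and the others lay between -0.40 and 0.47.

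Among the other members, the bin with the smallest p was E014 of Pcdh19, which the authors' deposited table listed at a log2 change of -0.64 (p = 0.00103, adjusted p = 1) on a mean count of 37.5. E004 of Pcdh19 went the other way, listed in the authors' deposited table at 0.21 (p = 0.0338) on a mean count of 178. In Pcdh19 the 5 bins from E002 to E007 were thus higher in the knockout and the 5 from E008 to E014 lower, again a split seen only in the values. In Cdh18 the authors' deposited table listed E020 at a log2 change of 0.31 (p = 0.0165) and E014 at -0.22 (p = 0.0496). Single bins of Cdh9 (E002, 0.21, p = 0.044) and Pcdh1 (E001, 0.19, p = 0.0495) were listed in the authors' deposited table just under the same limit. Just outside it the authors' deposited table placed E023 of Cdh7 (-0.44, p = 0.0518) and E004 of Pcdh1 (-0.33, p = 0.0542).

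The bins also gave a view within the Pcdha and Pcdhg clusters. The 14 bins under the gene ID named Pcdha11 in the annotation summed to a mean count of 4746, beside 4500.1 for the Pcdha1 row, and the 15 bins under the ID named Pcdhgc4 summed to 9869, beside 9110.3 for the Pcdhga11 row. In both, the last bin, E015, held the most counts, listed in the authors' deposited table as 1813 for Pcdha11 and 3553 for Pcdhgc4. Usage of those last bins differed little, with log2 changes of knockout over control listed in the authors' deposited table at -0.065 and 0.024. Of the Pcdha11 bins 0 had an unadjusted p under 0.05. Their log2 changes in the authors' deposited table ran from -0.20 for E010 to 0.33 for E002, the latter on a mean count of 28.3. Among the Pcdhgc4 bins, the authors' deposited table listed E004 lower in the knockout at -0.29 (p = 0.00203, adjusted p = 1) on a mean count of 366. The bins to either side, E003 and E005, were listed in the authors' deposited table at -0.029 and 0.028. The largest change among the Pcdhgc4 bins was that of E011, listed in the authors' deposited table at 0.44 (p = 0.28) on a mean count of only 40.0.

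**Figure D4:**
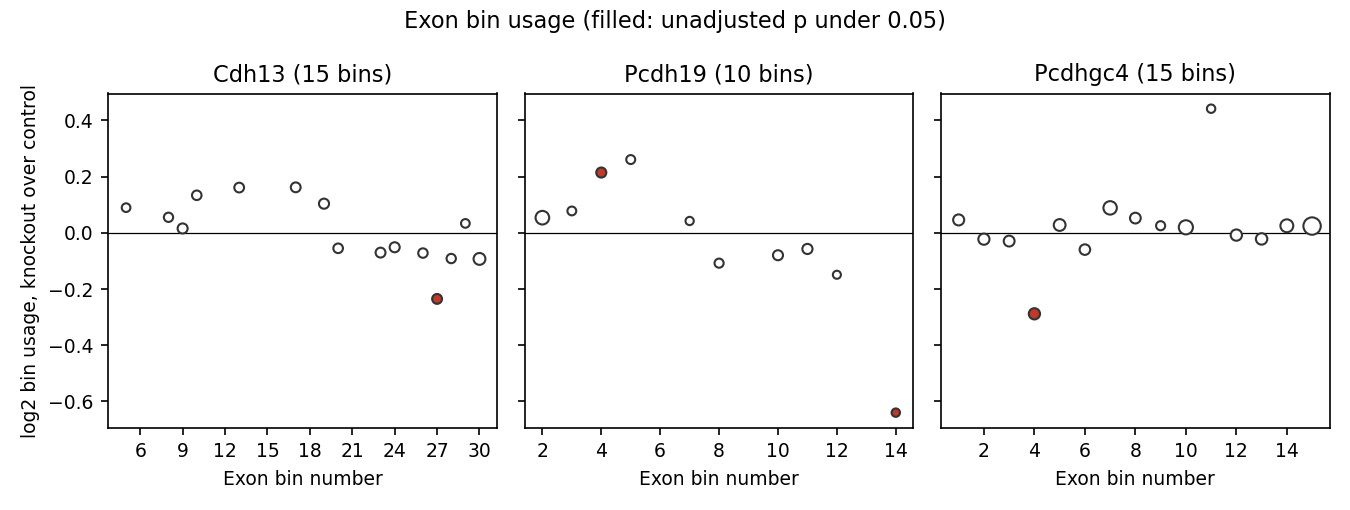
log2 change in exon bin usage of knockout over control against bin number for Cdh13, Pcdh19 and the gene ID named Pcdhgc4; point area grows with the mean count of the bin, and filled points had an unadjusted p under 0.05 (none had an adjusted p under 0.05). In Cdh13 the points lie above 0 up to E019 and, except for E029, below 0 from E020 on. In Pcdhgc4 E004 lies at -0.29 while its neighbours lie near 0, and E011, with a low mean count, lies at 0.44.

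Editing itself was listed at 1 site in the family. It lies in a SINE repeat of the 3' UTR of Cdh22 (chromosome 2, position 164937353 on mm9), and the authors' deposited table gave 26.5% edited reads in the control and 19.7% in the knockout (adjusted p = 0.174). The difference of -6.76 points did not pass the test, where 40% of the 100 sites in SINE repeats of 3' UTRs passed, 28 of them lower in the knockout and 12 higher. The median difference of those 100 sites was -3.63 points. Coverage of the site is unknown. Cdh22 did not pass in the gene table, and its 16 bins had log2 changes from -0.26 to 0.11 with none at an unadjusted p under 0.05.

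Genes that work with cadherins were described through lists. The counts that passed are to be read beside 0.0197% of all listed genes at an adjusted p under 0.05. Of 19 listed catenins and cadherin adaptors, 0 passed, 11 were higher in A and 8 lower, with a median log2 difference of 0.028, and all lay within 1.2-fold. Ctnnb1, the gene of beta-catenin, which links the tails of classical cadherins to alpha-catenin, had a mean count of 19885 in the authors' deposited table and a log2 difference of -0.0097. By p, the authors' deposited table placed Plekha7 first (-0.17, p = 0.089), followed by the receptor phosphatase gene Ptprf (0.15, p = 0.173). T-cadherin binds the fat-derived hormone adiponectin. Of 11 listed genes of partners of T-cadherin and of adiponectin signalling 0 passed, 6 were higher and 5 lower, with a median of 0.025. The integrin-linked kinase gene Ilk led them by p in the authors' deposited table (0.10, p = 0.289), and the adiponectin receptor gene Adipor1 stood at 0.046.

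Of 25 listed partners and regulators of protocadherins, 0 passed an adjusted p under 0.05, where 0.0197% of all listed genes did. Of the 25, 13 were higher in A and 12 lower, with a median of 0.0073. Cyfip2, of the WAVE complex, led them by p, with a mean count of 15625 in the authors' deposited table (-0.23, p = 0.00223, adjusted p = 1). Other listed genes of that complex went both ways without passing. Higher in A were Wasf1, the gene of WAVE1, at 0.42 in the authors' deposited table (p = 0.226), the largest difference of the list, and Abi2 at 0.14 (p = 0.151). Cyfip1 was listed in the authors' deposited table at 0.040, and Abi1 (-0.032) and Nckap1 (-0.030) were slightly lower in A. Ptk2b, a focal adhesion kinase relative, was listed in the authors' deposited table at 0.15 (p = 0.131). Factors that act on the choice of clustered protocadherin promoters differed little: the authors' deposited table listed Ctcf at -0.087, the cohesin gene Rad21 at 0.021 and Smchd1 at -0.060. Of 16 other listed genes of the cadherin superfamily, which share Ret with the previous list, 14 were higher in A and 2 lower, with a median of 0.20, and 0 passed an adjusted p under 0.05. Over all listed genes the median was 0.0063, with 52.9% higher in A. A difference of less than 1.2-fold was found for 9 of the 16 (56.2%), beside 91.6% of all listed genes. Low-count Cdhr2 was listed in the authors' deposited table at 0.70 (p = 0.0471, mean count 23.4), and Celsr2, which acts in planar cell polarity, at 0.43 (p = 0.0909, mean count 2812). Clstn2, a calsyntenin gene of synaptic membranes, was listed in the authors' deposited table at 0.16 (p = 0.0817, mean count 1902), and the desmosomal gene Dsg2 at 0.46 (p = 0.169, mean count 20.4).

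Markers of cell types that a cortical dissection can hold were set beside Cdh13. Of the 9 excitatory neuron markers 7 were higher in A (median log2 difference 0.15, summed mean count 29960). The smallest p of these 9 genes in the authors' deposited table was that of Neurod6, which was lower in A (-0.22, p = 0.0661, mean count 2478). Fezf2 was also lower in A (-0.070), and the p-values of the 9 genes ran up to 0.993. All 6 interneuron markers were higher in A (summed mean count 17367), with log2 differences listed in the authors' deposited table from 0.098 for Vip to 0.34 for Gad2. The p-values of these 6 genes in the authors' deposited table ran from 0.148 to 0.665. Of 6 listed striatal neuron markers 4 were higher in A (median 0.21, summed mean count 2405), and Drd2 was not among the listed genes. Ppp1r1b, which encodes DARPP-32, had the smallest p of them in the authors' deposited table (0.30, p = 0.00242, adjusted p = 1). Penk, with the highest mean count of the 6 (920), and Tac1 were slightly lower in A, each at -0.033 in the authors' deposited table. All 3 olfactory bulb markers, Eomes, Doc2g and Cdhr1, which is also in the superfamily list, were higher in A (median 0.32, summed mean count 790.4). Yet the authors' deposited table gave these 3 genes large p-values, from 0.872 to 0.987. The markers of endothelial and mural cells, some of which also express T-cadherin, had a median of -0.017 (summed mean count 9662), and 2 of 8 were higher in A. The medians of the astrocyte, oligodendrocyte, precursor, microglia and leptomeningeal markers lay between -0.0085 and 0.11. None of these markers passed an adjusted p under 0.05, where 0.0197% of all listed genes did. The part of these markers in the Cdh13 difference was not tested. In bulk tissue, more cells of a type and more RNA per cell cannot be told apart.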

How the data were processed

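RNA of 12 frontal cortex libraries, 6 per genotype, was sequenced after ribosomal RNA removal with a stranded kit, per the labels' protocols. The submitters' processing notes name the build mm9, DESeq, HTSeq, SAMtools 01.19.0, Bowtie2 2.02.0 and TopHat2 2.0.6, without roles. The authors deposited, per the file headers, a gene table (mean normalized counts as a signal, the ratio of B over A in the form DESeq writes, its log2 and p-values), an exon bin table (mean count signal, a dispersion score, log2 of control over Adar2 and p-values) and an editing table (percent edited, adjusted p-value). Site positions are another kind of deposited value. The name of the deposited exon table refers to DEXSeq, with no version. Means per unnamed condition (2 columns) were not used. Precision per library is unknown, and the gene and exon p-values measure at most the spread between these libraries. Which spread the adjusted p of the editing table takes up is not stated. Signs of both log2 columns were turned.

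The members and lists were chosen with earlier results of these data known. Calls used the deposited adjusted p under 0.05. Named were all Cdh genes and non-clustered protocadherins, the 3 genes of smallest p and of highest count per cluster, the 10 bins of smallest p, and up to 4 genes of smallest p per list. Further genes and bins were named after their values were seen. Benjamini-Hochberg adjustment (Python 3.11.15, scipy 1.17.1) was tested on simulated data. Exon IDs were named through GENCODE M21 (13573 of 14150 matched). Exon lengths came from that annotation, whose build, GRCm38, is not the files'. Other scalings could not be tried.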

Additional observations from a re-analysis of the deposited data

How the results depend on the processing

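The number of members called was 1 at an adjusted p under 0.1, with Benjamini-Hochberg adjustment renewed over the listed genes (Cdh13 at 0.0188) and with a mean count of at least 100 (0.0152). With Bonferroni over the listed genes it was 0, with Cdh13 at 0.0564, by the construction of that adjustment. The number of member bins called was 0 under each of the 4 alternatives tried. The median log2 differences of the Cdh genes, the non-clustered protocadherins and the Pcdhb genes kept their sign with a mean count of at least 100, as a mean, as a mean weighted by count and, for the Cdh genes, without Cdh13. The values ran from 0.048 (without Cdh13) to 0.093 (as a mean) for the Cdh genes, beside a median of 0.055, from 0.069 to 0.089 for the non-clustered protocadherins and from -0.11 to -0.086 for the Pcdhb genes. Another normalization or program and leaving out each library were not run, since they need values per library. No paired analysis was possible because values per library were not at hand and the labels pair no mice. The unknown depth limits what can be said of genes with few counts, such as Cdh15 and Cdh23, and of the Cdh22 editing site.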
